A study of Rattus norvegicus with 16 samples.

Results

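The comparison described here set 4 libraries of rat mesenchymal stem cells (MSCs) kept in M1CM, the supernatant of classically activated macrophages, against 4 libraries kept in M0CM, the supernatant of resting macrophages. The 8 libraries were chosen by their labels out of 16, and each of rats 2, 3, 4 and 8 gave 1 library to each medium, so the comparison is paired by animal. The MSCs came from the bone marrow of adult female wild-type Sprague-Dawley rats, were sorted at passage 2 as CD29+/CD45- cells and stayed in their medium for 24 h before their RNA was sequenced. Both conditioned media were RPMI in which primary macrophages, grown from bone marrow monocytes with M-CSF, had been kept. For M0CM the macrophages were left unpolarized and the M-CSF was removed, and for M1CM they were given lipopolysaccharide (LPS) and interferon gamma (IFNγ) with M-CSF present. The M1CM libraries therefore differ from the M0CM libraries by macrophage products and by any LPS, IFNγ or M-CSF carried over, and these cannot be told apart. The other 8 libraries, used only where named, are the same rats' cells in D10 (DMEM with 10% fetal bovine serum and gentamycin) and in Pol1, labelled as D10 with 100 ng/ml LPS and 20 ng/ml IFNγ.

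Resting and classically activated macrophages secrete different mixtures of proteins and small molecules. IFNγ acts through its receptor, the Janus kinases and STAT proteins, which bind the gamma-activated site (GAS) of target genes and induce interferon regulatory factors such as IRF1, which in turn bind the interferon-stimulated response element (ISRE). LPS, through TLR4, and the cytokines TNF and IL-1 release NF-κB from its inhibitors, and NF-κB binds kB sites in chemokine, cytokine and antigen-processing genes. MSCs carry the receptors of both arms and are known to answer them with chemokines, nitric oxide or prostaglandin E2 and with growth factors.

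The libraries held 23291125 to 27863079 counted reads in M1CM and M0CM, and no pair of libraries had identical counts. Levels are given in CPM, the counts of a gene per 1000000 counts of its library, with library sizes corrected by trimmed-mean (TMM) factors. On the 2000 most variable genes the first principal component of the 8 libraries took 75.8% of the variance and separated the media. The MSC genes Thy1 and Itgb1 (CD29) were present throughout: Thy1 stood at 1195 ± 201 CPM in M1CM and 1156 ± 136 CPM in M0CM (mean ± SD, n = 4, log2 fold change 0.04, SE 0.13, adjusted p = 0.791), and Itgb1 at 1366 ± 243 and 2694 ± 574 CPM (log2 fold change -0.97, SE 0.10, adjusted p = 1.51e-06). The 15 named macrophage and monocyte markers summed to 10.1 to 14 CPM in M0CM, 5.6 to 12.6 CPM in M1CM and 1.84 to 3.3 CPM in D10. In M0CM 1 of the 15 (Cd163) had 0 counts, which allows up to 0.0288 CPM for counting error, and in M1CM 4 (C1qb, Cd163, Mrc1 and Tyrobp) had 0 counts. Ptprc (CD45) averaged 0.351 CPM in M0CM and 0.115 CPM in M1CM. Whether the macrophage transcripts come from a few macrophages carried over or from the MSCs was not tested. Cd3e, Ms4a1 and S100a8, markers of other leukocytes, had 0 counts in all 8 libraries, and the 4 endothelial markers summed to at most 7.69 CPM. In bulk libraries fewer cells of a type and less RNA per cell cannot be told apart.

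M1CM changed the MSCs' expression on a broad front relative to resting macrophage medium. Chemokine, interferon-stimulated, NF-κB, antigen-presenting and glycolytic genes were higher in M1CM, and contractile, adhesion, collagen, mitotic and lipid-desaturase genes were lower. Of 13556 genes tested 7087 were called (52.3%), 3561 of them higher (26.3%) and 3526 lower (26.0%), at an adjusted p below 0.05, from the quasi-likelihood test with medium and rat as terms and Benjamini-Hochberg adjustment over all genes tested. Changes of at least 2-fold were called for 1481 genes upward (10.9%) and 1410 downward (10.4%), and changes of at least 4-fold for 712 (5.25%) and 547 (4.04%). The 4 M1CM and 4 M0CM libraries did not overlap for 4856 of the tested genes (35.8%), and 6551 (48.3%) were called with the same direction in all 4 rats. Across the tested genes the log2 fold changes had a median of -0.01. A count of list members below is to be read against the shares of all tested genes, since about 1 gene in 4 was called in each direction.

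**Figure D1:**
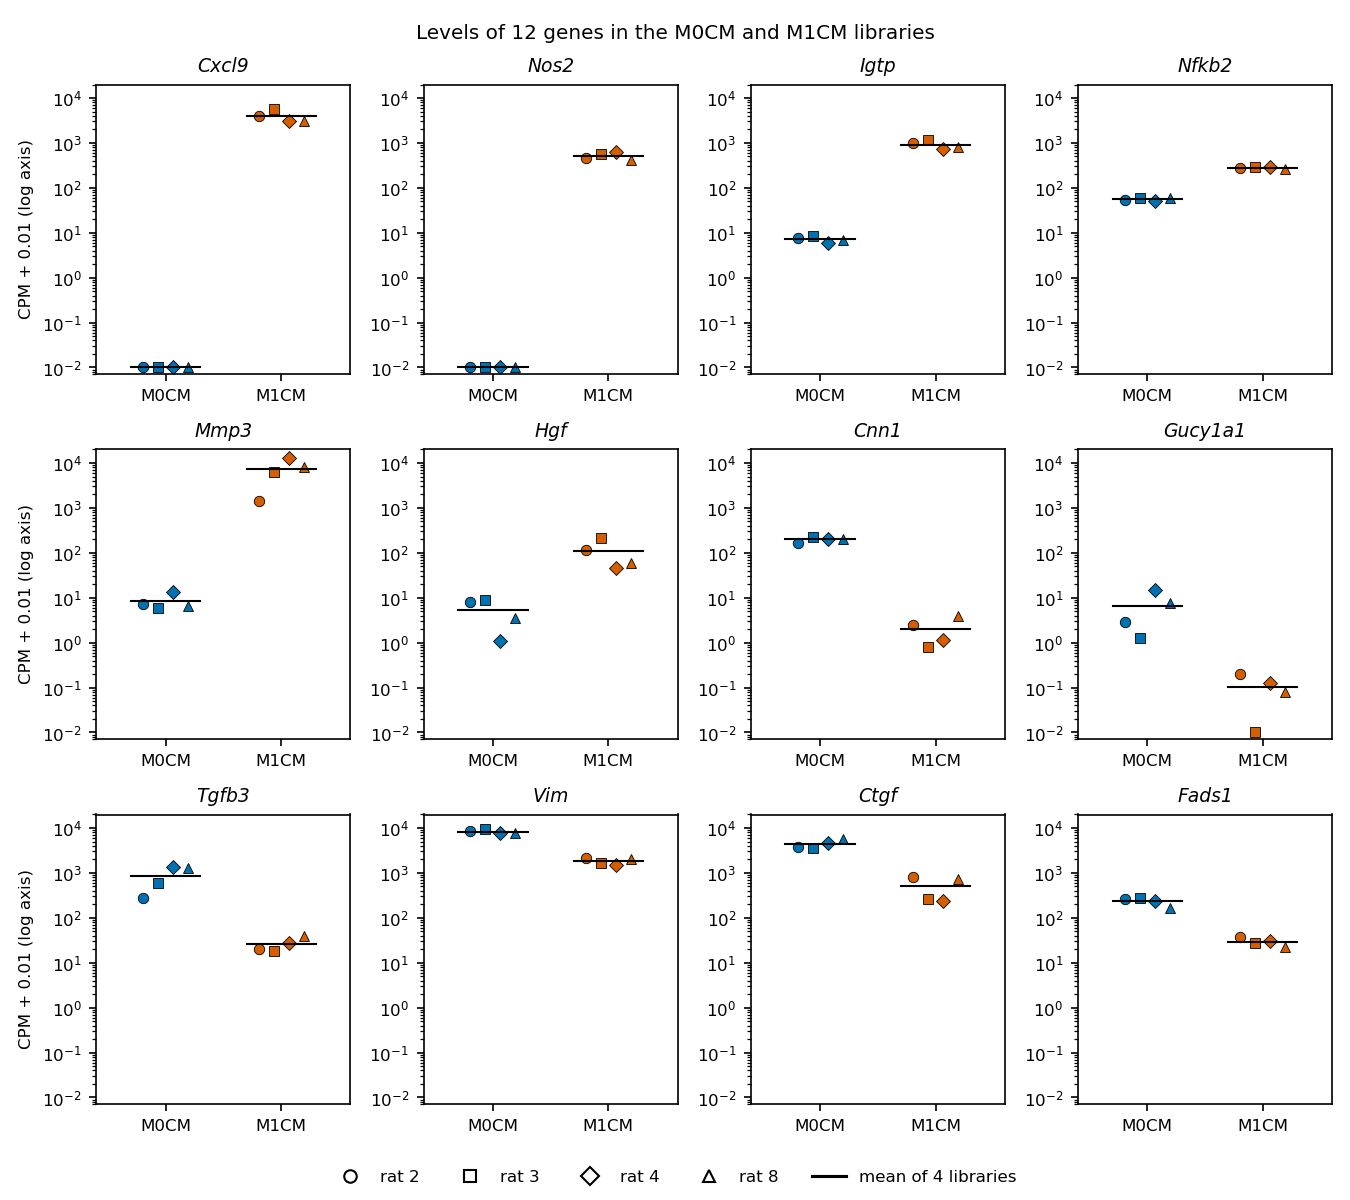
Levels in CPM plus 0.01 (log axis) of 12 genes in the M0CM and M1CM libraries, 1 point per rat with the mean of 4 libraries as a line. Cxcl9 and Nos2 had 0 counts in all 4 M0CM libraries, and no gene of the 12 overlaps between the media. Of all genes tested 35.8% did not overlap.

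The rises given first are the 10 of largest fitted fold among genes with a name in the table that were called, moved the same way in all 4 rats and had a mean of at least 5 CPM in M1CM. In what follows the 4 values of a medium are given in the order of rats 2, 3, 4 and 8. The T cell attractant Cxcl9, a ligand of CXCR3, stood at 4018, 5659, 3033 and 3055 CPM in M1CM and had 0 counts in every M0CM library, a rise of at least 134401-fold against a floor of 3 counts over the M0CM group (adjusted p = 3.23e-10). Cxcl11, which binds the same receptor, stood at 2087, 2356, 2480 and 2194 CPM against 1 count in all of M0CM, a ratio of 236824 with an exact 95% counting interval of 42505 to 9354070. Cxcl10, the third of these ligands, stood at 2661, 2662, 3513 and 2665 CPM in M1CM and 0.0797, 0.269, 0.0704 and 0.0816 CPM in M0CM (log2 fold change 14.44, SE 0.33, adjusted p = 1.43e-12). All 3 exceeded 2000 CPM in every M1CM library and stayed below 1 CPM in every M0CM library.

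Nos2, the inducible nitric oxide synthase, stood at 463, 568, 629 and 414 CPM in M1CM and 0 counts in M0CM, at least 17878-fold higher. Acod1, which makes itaconate, stood at 206, 243, 83.8 and 112 CPM and Apol11a, of the apolipoprotein L family, at 99.3, 108, 54.4 and 54 CPM, again against 0 counts in M0CM (at least 5471-fold and 2691-fold). Single counts in M0CM stood against 1716, 771, 469.6 and 406 CPM of Ubd, a ubiquitin-like modifier, 442, 345, 156 and 394 CPM of the antiviral GTPase Mx1 and 82.7, 61.9, 232 and 45.2 CPM of Csf3, the granulocyte colony-stimulating factor. Their ratios were 86518 (counting interval 15528 to 3417310), 34776 (6241 to 1373630) and 11022 (1978 to 435371). The antiviral radical SAM enzyme Rsad2 stood at 1275, 866, 156 and 263 CPM in M1CM and 0.12, 0.0384, 0 and 0 CPM in M0CM (log2 fold change 13.78, SE 0.35, adjusted p = 2.95e-12). Intervals and floors cover counting error only.

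The falls given here are the 10 of largest fold by the same rule, with the mean taken in M0CM. Cnn1, calponin of smooth muscle, stood at 2.47, 0.771, 1.13 and 3.82 CPM in M1CM and 166, 230.1, 202 and 200.5 CPM in M0CM (log2 fold change -6.64, SE 0.35, adjusted p = 2.84e-09). Lmod1, the smooth muscle leiomodin, stood at 2.58, 1.54, 1.85 and 2.75 CPM in M1CM and 113, 157, 213 and 189 CPM in M0CM (log2 fold change -6.25, SE 0.26, adjusted p = 2.63e-10), and the actin-binding Limch1 at 0.116, 0.0428, 0 and 0 CPM in M1CM and 13.5, 11.2, 7.78 and 7.43 CPM in M0CM (log2 fold change -7.89, SE 0.63, adjusted p = 1.57e-07). Gucy1a1, a subunit of the soluble guanylate cyclase that senses nitric oxide, stood at 0.193, 0, 0.113 and 0.0714 CPM in M1CM and 2.91, 1.23, 14.8 and 7.67 CPM in M0CM (log2 fold change -5.97, SE 0.42, adjusted p = 4.15e-08). The lowest M0CM library lay above the highest M1CM library for each of these genes, in Gucy1a1 by the smallest margin. Cavin2, a coat protein of caveolae, fell with a log2 fold change of -5.96, Tril, an accessory protein of TLR4 signalling, with -5.64, the atypical cadherin Fat3 with -5.56 and the matricellular Wisp2 with -5.55 (adjusted p between 4.93e-10 and 1.53e-06). Prima1, the membrane anchor of acetylcholinesterase, stood at 0, 0.0856, 0.0378 and 0.25 CPM in M1CM and 0.598, 1.27, 40.8 and 24 CPM in M0CM (log2 fold change -7.37, SE 0.62, adjusted p = 2.72e-07), with M0CM levels that differed widely between rats. The gene listed as Igh-6, an immunoglobulin heavy chain name, went from 6.96 ± 5.11 to 0.0494 ± 0.0242 CPM (log2 fold change -6.95, SE 0.35, adjusted p = 1.48e-09), and its reads may be shared with related segments.

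Promoter letters of a few induced genes are printed because the interferon and NF-κB arms are defined by such sites. They cover 250 bases before the start of the gene in RefSeq's GRCr8 build, written 5′ to 3′ on the gene's own strand. Capitals mark matches, on either strand, to an ISRE core (GAAA, any 2 bases, GAAA), a GAS (TTC, any 3 bases, GAA) or a kB site (GGGA, any base, TTTCC). The genes were taken from those described here that hold a match.
Gbp2, chr2:234005477-234005726, plus strand: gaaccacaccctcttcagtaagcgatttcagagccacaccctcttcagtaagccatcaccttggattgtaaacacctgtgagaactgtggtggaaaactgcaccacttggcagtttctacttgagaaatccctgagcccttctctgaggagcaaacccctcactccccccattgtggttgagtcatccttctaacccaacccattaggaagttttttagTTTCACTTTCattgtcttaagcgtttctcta
Igtp, chr10:42874797-42875046, plus strand: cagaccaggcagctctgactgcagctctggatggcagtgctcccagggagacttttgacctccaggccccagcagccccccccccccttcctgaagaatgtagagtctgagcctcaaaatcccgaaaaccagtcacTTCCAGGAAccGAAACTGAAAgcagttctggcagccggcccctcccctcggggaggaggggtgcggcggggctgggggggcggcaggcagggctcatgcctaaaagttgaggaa
Tap1, chr20:4668544-4668793, minus strand: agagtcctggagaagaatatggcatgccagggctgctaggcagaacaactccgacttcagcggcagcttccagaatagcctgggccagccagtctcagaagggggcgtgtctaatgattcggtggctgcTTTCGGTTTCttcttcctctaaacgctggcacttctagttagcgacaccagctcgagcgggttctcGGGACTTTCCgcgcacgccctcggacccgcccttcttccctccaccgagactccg
Irf1, chr10:38417685-38417934, plus strand: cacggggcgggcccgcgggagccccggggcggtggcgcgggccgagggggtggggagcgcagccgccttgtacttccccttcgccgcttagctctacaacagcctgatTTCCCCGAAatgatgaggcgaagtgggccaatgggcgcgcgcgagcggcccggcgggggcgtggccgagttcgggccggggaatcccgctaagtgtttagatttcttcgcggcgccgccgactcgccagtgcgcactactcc
Rsad2, chr6:48788121-48788370, minus strand: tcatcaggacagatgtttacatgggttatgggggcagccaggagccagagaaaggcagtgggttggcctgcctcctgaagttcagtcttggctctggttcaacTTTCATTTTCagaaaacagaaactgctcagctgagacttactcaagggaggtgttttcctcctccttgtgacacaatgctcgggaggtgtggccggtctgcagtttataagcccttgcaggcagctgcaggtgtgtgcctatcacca

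The ISRE core of Gbp2 begins 31 bases before the start and that of Rsad2 147 bases before it. In Igtp a GAS at 114 bases lies just before an ISRE core at 103 bases. Tap1 holds an ISRE core at 121 and a kB site at 55 bases, and Irf1 a GAS at 142 bases. Promoters were found by symbol for 9361 of the tested genes. An ISRE core was in 20.9% of the 196 promoters of genes at least 16-fold higher and in 12.2% of the 490 at least 4-fold higher. It was in 2.59% of the 9361 of tested genes, 3.29% of all 27457 promoters in the table and 1.63% of the 369 at least 4-fold lower. The kB letters were in 4.59% and 3.47% of the same groups of higher genes. Tested genes gave 0.459%, all promoters 0.317% and the lower genes 0.271%. GAS letters were in 11.7% and 9.39%, against 5.81% of tested genes, 7.52% of all promoters and 5.15% of the lower genes. Among the 68 promoters of genes at least 16-fold lower the shares were 10.3% for GAS, 0% for the ISRE core and 0% for kB. The CArG box, bound by serum response factor, was in 2.17% of the lower genes, 0.816% of the higher genes, 1.22% of tested genes and 1.5% of all promoters. A GAS match can overlap an ISRE core, and a match of letters is not a bound site.

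Interferon-stimulated genes were higher without exception among the 53 named members tested: all 53 were called higher, 52 of them at least 2-fold, with a median log2 fold change of 6.99. Many of these genes are near 0 in M0CM and passed the filter through the media that induce them. Igtp, a GTPase of immunity to intracellular parasites, stood at 1003, 1152, 714 and 813 CPM in M1CM and 7.61, 8.38, 5.81 and 6.98 CPM in M0CM (log2 fold change 6.99, SE 0.14, adjusted p = 5.79e-13), with log2 ratios within rats between 6.85 and 7.09. Gbp2, a guanylate-binding protein, went from 9.34 ± 6.16 to 3955 ± 929.8 CPM (log2 fold change 8.89, SE 0.32, adjusted p = 6.77e-11), Gbp7 from 1.31 ± 0.29 to 1345 ± 149 CPM (log2 fold change 10.00, SE 0.21, adjusted p = 5.79e-13) and the ubiquitin-like Isg15 from 0.844 ± 0.164 to 158 ± 67 CPM (log2 fold change 7.48, SE 0.28, adjusted p = 8.64e-11). Members of the Gbp and RT1 families have near-identical copies, and their reads may be split between them.

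In interferon signalling 23 of 31 members rose and 3 fell. The transcription factor Irf1 stood at 806, 814, 657 and 591 CPM in M1CM and 9.49, 9.03, 5.53 and 7.18 CPM in M0CM (log2 fold change 6.53, SE 0.16, adjusted p = 2.67e-12). Irf8 went from 0.431 ± 0.203 to 85.5 ± 36 CPM (log2 fold change 7.62, SE 0.27, adjusted p = 6.07e-11) and Stat2 from 42.5 ± 6.99 to 681 ± 28.1 CPM (log2 fold change 4.01, SE 0.10, adjusted p = 2.96e-12). The receptor chain Ifngr1 rose to 141 ± 48.3 from 58.6 ± 11.4 CPM (log2 fold change 1.24, SE 0.15, adjusted p = 1.18e-05). Among the SOCS inhibitors Socs1, which restrains JAK signalling, rose (log2 fold change 7.16, SE 0.23, adjusted p = 2.38e-11), and Socs2, an inhibitor of growth hormone signalling, fell from 1.01 ± 0.435 to 0.0523 ± 0.0813 CPM (log2 fold change -4.25, SE 0.61, adjusted p = 4.76e-05).

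All 27 NF-κB subunits, inhibitors and target regulators tested rose, 20 at least 2-fold. The precursor Nfkb2 stood at 274, 297, 291 and 269 CPM in M1CM and 53.1, 58.4, 51.4 and 59.2 CPM in M0CM (log2 fold change 2.35, SE 0.08, adjusted p = 2.33e-11), the inhibitor Nfkbia at 139 ± 18.6 against 10.0 ± 1.91 CPM (log2 fold change 3.79, SE 0.18, adjusted p = 8.03e-10), and Tnfaip3 (A20), which ends the signal, at 125 ± 47.1 against 3.82 ± 1.55 CPM (log2 fold change 5.05, SE 0.30, adjusted p = 8.1e-09). Nfkb1 (log2 fold change 1.77, SE 0.08, adjusted p = 8.35e-10) and Rela (log2 fold change 1.37, SE 0.08, adjusted p = 1.08e-08) rose less. Of the pattern recognition sensors 18 of 24 rose. Tlr2, a receptor of bacterial lipopeptides, went from 4.85 ± 2.29 to 332 ± 145 CPM (log2 fold change 6.13, SE 0.28, adjusted p = 6.93e-10) and Nod2, a sensor of peptidoglycan fragments, from 0.151 ± 0.134 to 28.3 ± 13 CPM (log2 fold change 7.50, SE 0.40, adjusted p = 2.83e-09). Tlr4, the LPS receptor, rose by a smaller step from 12.4 ± 5.06 to 21.8 ± 14.5 CPM (log2 fold change 0.76, SE 0.20, adjusted p = 0.00581), and the flagellin receptor Tlr5 fell from 7.46 ± 2.72 to 0.52 ± 0.44 CPM (log2 fold change -3.95, SE 0.28, adjusted p = 4.17e-08).

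Chemokines other than the CXCR3 ligands also rose. Of 23 tested, 19 were called higher and none lower, and 11 listed chemokines were below the filter. Cxcl9, Cxcl11, Ccl5 and Ccl22 held at most 1 count in all of M0CM and passed the filter only through other media. Their rise was nearly fixed by the filter. The monocyte attractant Ccl2 stood at 1286, 1024, 1375 and 1376 CPM in M1CM and 35.2, 94.9, 46 and 36.4 CPM in M0CM (log2 fold change 4.75, SE 0.37, adjusted p = 1.4e-07), the neutrophil attractant Cxcl1 at 471, 246, 604 and 363 CPM in M1CM and 10.7, 13.3, 11.2 and 3.14 CPM in M0CM (log2 fold change 5.59, SE 0.42, adjusted p = 8.09e-08), and Ccl5 at 50.8, 139.8, 63.9 and 75.1 CPM against 1 count in M0CM. Cx3cl1, the membrane-bound fractalkine, stood at 1216, 1424, 1372 and 619 CPM in M1CM and 1.47, 2.65, 30.6 and 0.939 CPM in M0CM (log2 fold change 8.24, SE 0.70, adjusted p = 3.25e-07), and rat 4 alone held it above 3 CPM in M0CM. Cxcl12, the homing factor of the stem cell niche, rose to 542 ± 318 from 346 ± 236 CPM (log2 fold change 0.79, SE 0.18, adjusted p = 0.00193). The libraries of the media did not overlap in Ccl2, Cxcl1, Ccl5 or Cx3cl1, as was the case for 35.8% of all tested genes.

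Among cytokines 23 of 30 rose and 2 fell (1 without rat 3 or rat 8). Csf3 and Tnfsf10 held at most 1 count in all of M0CM, so their rise was nearly fixed by the filter. Csf1 (M-CSF) transcripts in the MSCs themselves stood at 3251, 4226, 2878 and 2184 CPM in M1CM and 411, 479, 379.7 and 325 CPM in M0CM (log2 fold change 2.95, SE 0.14, adjusted p = 9.1e-10). Il6 went from 10.9 ± 3.38 to 106 ± 42.5 CPM (log2 fold change 3.25, SE 0.33, adjusted p = 2.01e-06), Il1a from 0.379 ± 0.384 to 134 ± 83.7 CPM (log2 fold change 8.47, SE 0.52, adjusted p = 1.12e-08) and Il1b from 0.0656 ± 0.0456 to 21.6 ± 19.2 CPM (log2 fold change 8.09, SE 0.53, adjusted p = 2.32e-08), while Il18bp, the decoy of IL-18, went from 1.95 ± 0.26 to 101 ± 33 CPM (log2 fold change 5.67, SE 0.15, adjusted p = 4.05e-12). Il15 was at 2.69 ± 1.18 and 2.33 ± 0.585 CPM and was not called (log2 fold change 0.20, SE 0.31, adjusted p = 0.608). Tnfsf18, the ligand of GITR, fell from 20.5 ± 7.01 to 4.69 ± 2.92 CPM (log2 fold change -2.08, SE 0.39, adjusted p = 0.000471).

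A list of immunomodulatory enzymes, ligands and receptors, among them costimulators, adhesion molecules and cytokine receptors, was mostly higher, 20 of 31 rising and 8 falling. The rise of its members Acod1 and Ido1, with at most 1 count in all of M0CM, was nearly fixed by the filter. Ptgs2 (COX-2) stood at 456, 854, 1990.4 and 831 CPM in M1CM and 30.7, 10.6, 11.5 and 16.2 CPM in M0CM (log2 fold change 5.89, SE 0.55, adjusted p = 8.61e-07) and Ptges, which completes prostaglandin E2, at 383, 414, 1513 and 1084 CPM in M1CM and 4.46, 5.31, 7.36 and 1.92 CPM in M0CM (log2 fold change 7.47, SE 0.55, adjusted p = 6.98e-08). Rat 2 had the lowest M1CM level of both, still above every M0CM library. Ido1, which degrades tryptophan, stood at 55.1, 20.1, 5.86 and 8.32 CPM against 1 count in M0CM, a ratio of 2291 (counting interval 411 to 90527), and Cd274 (PD-L1) at 78.9, 237, 95.3 and 63.7 CPM in M1CM and 0.598, 1.31, 1.34 and 0.449 CPM in M0CM (log2 fold change 6.88, SE 0.32, adjusted p = 6.83e-10). Ass1, which regenerates arginine from citrulline, the by-product of nitric oxide synthesis, went from 0.371 ± 0.359 to 312 ± 48.9 CPM (log2 fold change 9.89, SE 0.54, adjusted p = 3.66e-09). The adhesion molecules Vcam1 and Icam1 rose to 669 ± 549.5 and 828 ± 86.2 CPM from 9.15 ± 9.05 and 127 ± 45 CPM (log2 fold change 6.46, SE 0.46, adjusted p = 5.4e-08, and log2 fold change 2.82, SE 0.22, adjusted p = 1.48e-07). Among the members that fell were Ptgs1 (COX-1), from 91.7 ± 41 to 40.8 ± 13 CPM (log2 fold change -1.12, SE 0.11, adjusted p = 9.54e-07), the galectin Lgals3 (log2 fold change -1.99, SE 0.16, adjusted p = 1.48e-07) and Nt5e (CD73), which makes adenosine (log2 fold change -1.09, SE 0.20, adjusted p = 0.000475).

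Antigen-presenting genes rose in both classes. Of 34 class I and peptide-loading genes 28 rose and 1 fell (0 without rat 2). Tap1, the peptide transporter, stood at 1574, 1168, 1083 and 1085 CPM in M1CM and 31.2, 34.5, 27.9 and 34.4 CPM in M0CM (log2 fold change 5.25, SE 0.14, adjusted p = 4.05e-12), the immunoproteasome subunit Psmb9 went from 5.61 ± 1.93 to 342 ± 68.7 CPM (log2 fold change 5.96, SE 0.19, adjusted p = 2.8e-11) and B2m, the class I light chain, from 203 ± 22.8 to 2124 ± 334 CPM (log2 fold change 3.38, SE 0.12, adjusted p = 6.34e-11). The class II regulator Ciita stood at 72.2, 80.6, 57.1 and 42.2 CPM in M1CM and 0.279, 0.384, 2.32 and 0.939 CPM in M0CM (log2 fold change 5.98, SE 0.49, adjusted p = 1.98e-07), the invariant chain Cd74 at 261, 235, 90.0 and 54.9 CPM in M1CM and 0.159, 0.269, 0.352 and 0.163 CPM in M0CM (log2 fold change 9.22, SE 0.45, adjusted p = 1.19e-09), and RT1-Da at 66.3, 53.6, 10.1 and 8.6 CPM in M1CM and 0, 0, 0.0704 and 0.0408 CPM in M0CM, with 3 counts in all of M0CM (ratio 1163, counting interval 398 to 5641). All 6 class II members tested rose, and 5 were below the filter. RT1-Ba, RT1-Da and RT1-Db1 held at most 3 counts in all of M0CM and passed the filter only through other media. A rise of such members was nearly fixed by the filter, so the count of 6 is no separate support. The levels of Cd74 and RT1-Da in M1CM were higher in rats 2 and 3 than in rats 4 and 8. Of 17 complement genes 8 rose and 3 fell. Among those that rose were C3, the central component, from 25.6 ± 31.5 to 396 ± 328 CPM (log2 fold change 4.56, SE 0.52, adjusted p = 5.28e-06), and Serping1, the C1 inhibitor, from 20.9 ± 11.3 to 779 ± 190 CPM (log2 fold change 5.40, SE 0.30, adjusted p = 4.44e-09).

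**Figure D2:**
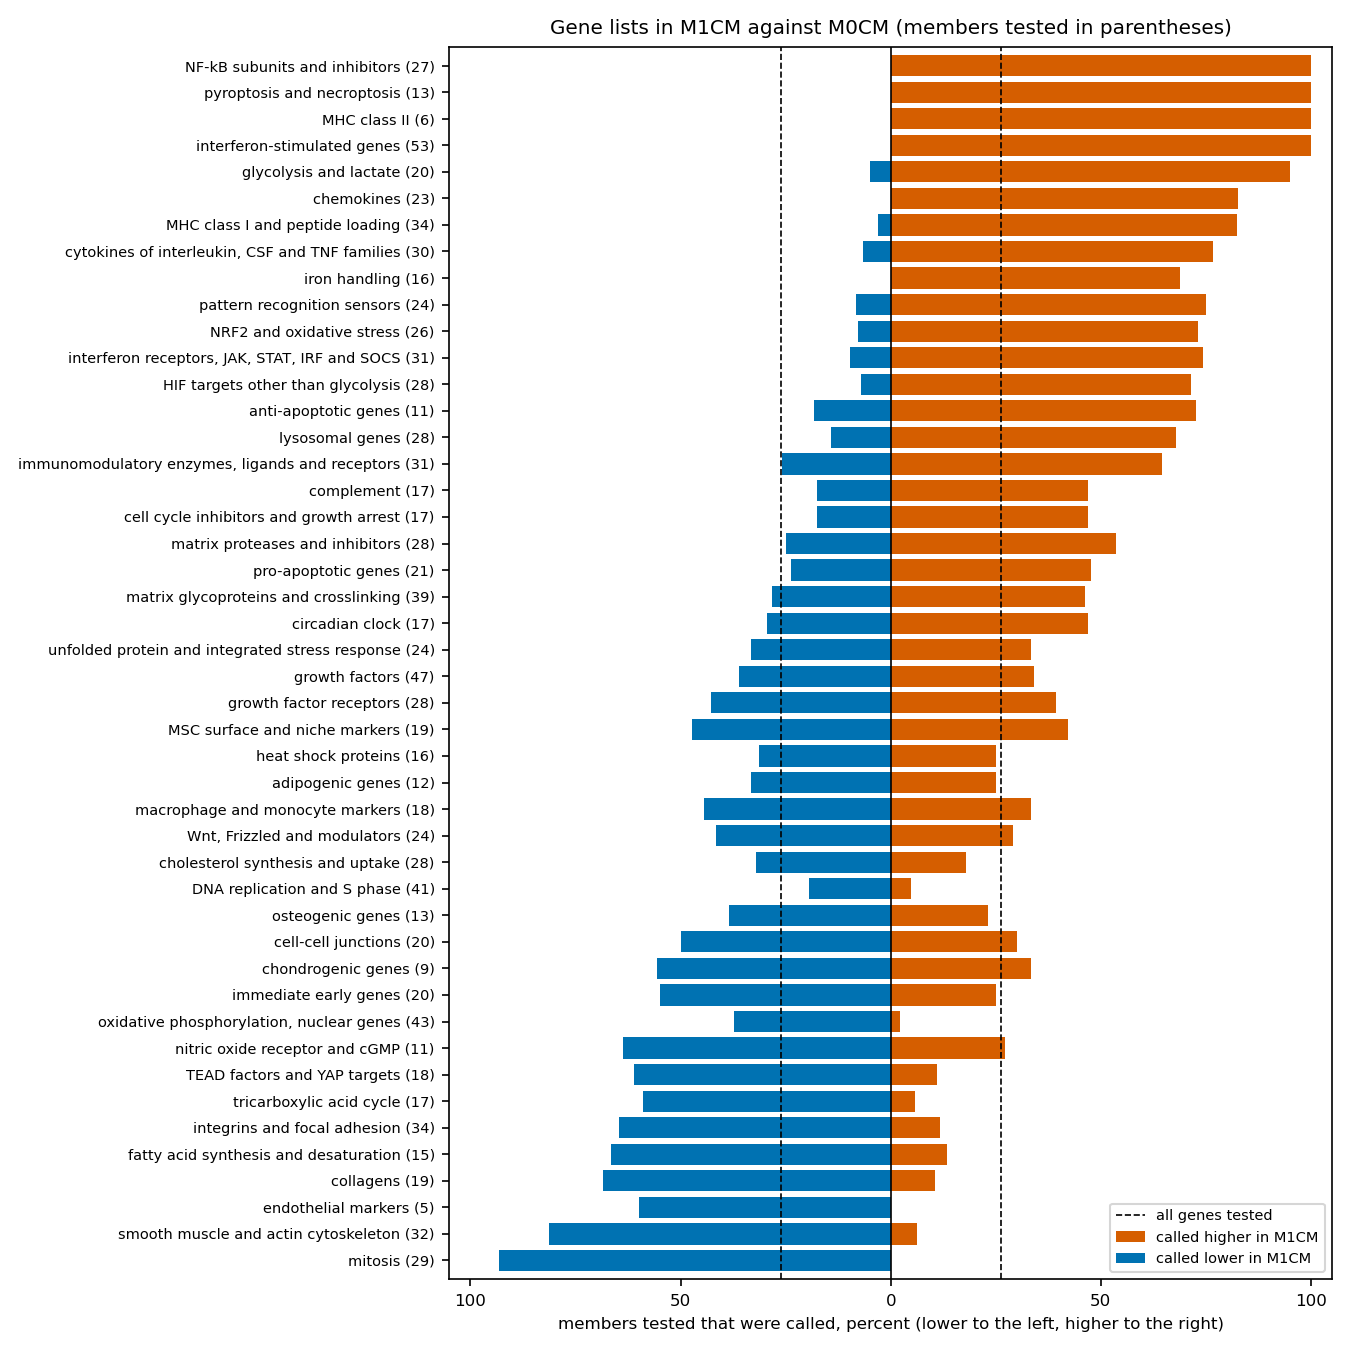
Share of the tested members of each gene list called higher in M1CM than in M0CM (right) or lower (left), in percent, with the number tested in parentheses and the shares of all 13556 genes (26.3% and 26.0%) as dashed lines. NF-κB and interferon-stimulated genes lie wholly to the right, and mitosis genes almost wholly to the left.

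Growth factors moved in both directions, 16 of 47 rising and 17 falling with a median log2 fold change of -0.01. Those that rose include factors for vessels, neurons and epithelium. Hgf, the hepatocyte growth factor, stood at 114, 216, 46.3 and 58.1 CPM in M1CM and 7.93, 8.8, 1.06 and 3.59 CPM in M0CM (log2 fold change 4.37, SE 0.29, adjusted p = 2.5e-08), and Vegfa at 582, 616, 704 and 682 CPM in M1CM and 266, 195, 219.8 and 345 CPM in M0CM (log2 fold change 1.36, SE 0.14, adjusted p = 1.79e-06). Gdnf, of the glial-derived family, went from 1.62 ± 0.70 to 8.6 ± 0.896 CPM (log2 fold change 2.50, SE 0.28, adjusted p = 5e-06), Bmp2 from 2.05 ± 1.83 to 19.3 ± 13.8 CPM (log2 fold change 3.31, SE 0.24, adjusted p = 5.39e-08) and the EGF receptor ligand Ereg from 0.725 ± 0.183 to 28.2 ± 23.7 CPM (log2 fold change 5.11, SE 0.40, adjusted p = 1.45e-07). For each of these 5 the M1CM libraries lay above the M0CM libraries in all 4 rats.

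The growth factors that fell were led by Tgfb3. Tgfb3 stood at 19.8, 17.9, 27.6 and 39.7 CPM in M1CM and 283, 583, 1329.6 and 1268 CPM in M0CM (log2 fold change -4.87, SE 0.29, adjusted p = 9.55e-09) and Tgfb2 at 39.4, 34, 41.8 and 54.8 CPM in M1CM and 309, 159, 407 and 499 CPM in M0CM (log2 fold change -2.90, SE 0.19, adjusted p = 1.86e-08). The spread of Tgfb3 between rats was wide in M0CM and narrow in M1CM. Igf1 stood at 4.63, 3.51, 0.34 and 1.36 CPM in M1CM and 13.6, 16.3, 1.41 and 2.49 CPM in M0CM (log2 fold change -1.69, SE 0.26, adjusted p = 8.93e-05): the groups overlap, but each rat's M1CM value was below its M0CM value. The lymphatic factor Vegfd fell from 45.4 ± 47.9 to 4.16 ± 0.916 CPM (log2 fold change -2.91, SE 0.39, adjusted p = 2.9e-05) and Hbegf from 55.9 ± 29 to 19.1 ± 12.2 CPM (log2 fold change -1.63, SE 0.24, adjusted p = 5.29e-05). Of the receptors 11 of 28 rose, with Pdgfra at 1329 ± 509 against 442 ± 221 CPM (log2 fold change 1.66, SE 0.15, adjusted p = 5.12e-07), and 12 fell, with Igf2r at 437 ± 92.5 against 1108 ± 159.5 CPM (log2 fold change -1.34, SE 0.16, adjusted p = 7.99e-06).

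Glycolytic genes were higher in M1CM than in M0CM and RPMI is the base of both media. Of 20 tested, 19 rose and 1, the lactate dehydrogenase subunit Ldhb, fell (log2 fold change -0.38, SE 0.14, adjusted p = 0.0382), a call lost without rat 3 or rat 4 (adjusted p = 0.271 and 0.0808). Hk2, the inducible hexokinase, stood at 311, 402, 392 and 314 CPM in M1CM and 45.1, 59.7, 54.3 and 52.6 CPM in M0CM (log2 fold change 2.74, SE 0.09, adjusted p = 2.84e-11), the glucose transporter Slc2a1 at 529, 452, 662 and 429.6 CPM in M1CM and 92.2, 95, 122 and 136 CPM in M0CM (log2 fold change 2.22, SE 0.14, adjusted p = 1.3e-08) and Ldha, which makes lactate, at 2367, 1379, 2173 and 2514 CPM in M1CM and 1001, 1039, 1347 and 1218 CPM in M0CM (log2 fold change 0.89, SE 0.19, adjusted p = 0.00133). In each of the 3 the lowest M1CM library lay above the highest M0CM library, and 35.8% of all tested genes had no overlap in either direction. Targets of the hypoxia-inducible factor outside glycolysis rose in 20 of 28 cases, with Bnip3, of mitophagy, going from 98.2 ± 3.47 to 363 ± 59.9 CPM (log2 fold change 1.88, SE 0.14, adjusted p = 1.11e-07) and Hif1a itself from 248 ± 29.8 to 470.3 ± 28.1 CPM (log2 fold change 0.93, SE 0.14, adjusted p = 7.66e-05). Genes of the tricarboxylic acid cycle mostly moved the other way, with 10 of 17 lower, 2 of them by at least 2-fold. Of 43 nuclear genes of oxidative phosphorylation 16 fell, 0 by at least 2-fold. In each of these lists 1 gene rose. Without rat 3 these rises were 2 and 3, and without rats 2, 4 or 8 no oxidative phosphorylation gene was called higher. Idh1 and Idh2, isocitrate dehydrogenases, fell from 113 ± 29 and 85.6 ± 8.59 to 43.5 ± 10.2 and 37 ± 7.52 CPM (log2 fold change -1.36, SE 0.10, adjusted p = 9.92e-08, and log2 fold change -1.23, SE 0.13, adjusted p = 3.77e-06).

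Fatty acid synthesis and desaturation fell in 10 of 15 members. The desaturase Fads1 stood at 38, 27.5, 30.1 and 22.7 CPM in M1CM and 268, 281, 235 and 164 CPM in M0CM (log2 fold change -3.00, SE 0.10, adjusted p = 3.94e-11), Fads2 went from 118 ± 48.7 to 27 ± 8.86 CPM (log2 fold change -2.04, SE 0.20, adjusted p = 1.38e-06) and the lipogenic regulator Srebf1 from 274 ± 69.3 to 88.1 ± 39.5 CPM (log2 fold change -1.71, SE 0.17, adjusted p = 1.15e-06). Acsl1, which activates fatty acids, rose from 28.6 ± 3.54 to 224 ± 42.5 CPM (log2 fold change 2.95, SE 0.14, adjusted p = 1.22e-09). Cholesterol genes gave 5 rises and 9 falls among 28. Without rat 4 the cholesterol list gave 3 rises and 4 falls, and without rat 3 5 falls. Antioxidant genes of the NRF2 list rose in 19 of 26 cases: Sod2, the mitochondrial superoxide dismutase, stood at 2218, 2028, 2164 and 2067 CPM in M1CM and 281, 386, 429 and 295 CPM in M0CM (log2 fold change 2.65, SE 0.20, adjusted p = 1.07e-07) and Hmox1, heme oxygenase, went from 125 ± 28.6 to 474 ± 132 CPM (log2 fold change 1.91, SE 0.14, adjusted p = 8.47e-08). Nox4, an NADPH oxidase, fell from 12.6 ± 10.2 to 0.773 ± 0.194 CPM (log2 fold change -3.81, SE 0.30, adjusted p = 1.3e-07). Of 16 iron genes 11 rose and none fell (1 without rat 4), among them Lcn2, which binds bacterial siderophores, at 218, 390, 318 and 73.9 CPM in M1CM and 2.79, 9.96, 4.05 and 0.204 CPM in M0CM (log2 fold change 6.35, SE 0.44, adjusted p = 3.57e-08). The stress list was split, with 8 rises and 8 falls among 24 genes of the unfolded protein and integrated stress response, with the chaperone Hspa5 not called (log2 fold change 0.04, SE 0.14, adjusted p = 0.83), and 4 rises without rat 4 or without rat 8.

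Mitotic genes were lower in M1CM. Of 29 tested 27 fell, 24 at least 2-fold, and none rose. Cdc20, the activator of the anaphase-promoting complex, stood at 1.47, 1.37, 5.06 and 3.39 CPM in M1CM and 13.4, 10.3, 12.7 and 23.3 CPM in M0CM (log2 fold change -2.52, SE 0.27, adjusted p = 3.19e-06), and the proliferation marker Mki67 at 6.25, 12.3, 31.6 and 16.5 CPM in M1CM and 49.7, 31.8, 49.8 and 105 CPM in M0CM (log2 fold change -1.83, SE 0.36, adjusted p = 0.000757), a smaller fall in rat 4 than in the other rats. Of 41 replication genes tested 8 fell and 2 rose, or 19.5% and 4.88% where all tested genes gave 26.0% and 26.3%, and Mcm2 and Pcna were not called (log2 fold change -0.27, SE 0.17, adjusted p = 0.188, and log2 fold change 0.22, SE 0.15, adjusted p = 0.245). Rat 4 decided this count: without it 22 replication genes were called lower and 1 higher, and Mcm2 was called lower (log2 fold change -0.54, adjusted p = 0.00249), while without rat 8 4 were lower. The cyclin-dependent kinase inhibitor Cdkn1a (p21) rose from 316 ± 119.8 to 450.1 ± 157 CPM (log2 fold change 0.53, SE 0.08, adjusted p = 0.000108).

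Genes of lytic cell death all rose, 13 of 13. Mlkl, the executor of necroptosis, went from 13.7 ± 2.13 to 126 ± 14.4 CPM (log2 fold change 3.21, SE 0.12, adjusted p = 7.63e-11), the inflammasome sensor Nlrp3 stood at 58.5, 103, 378 and 140.1 CPM in M1CM and 6.5, 13.1, 30.5 and 12.2 CPM in M0CM (log2 fold change 3.33, SE 0.18, adjusted p = 3.62e-09), and Casp1 went from 3.79 ± 1.97 to 79.5 ± 22.9 CPM (log2 fold change 4.44, SE 0.24, adjusted p = 2.98e-09). Pro-apoptotic genes gave 10 rises and 5 falls among 21, and anti-apoptotic genes 8 and 2 among 11. Tnfsf10 (TRAIL), a death ligand, stood at 19.8, 58.5, 5.21 and 14.2 CPM against 0 counts in M0CM, at least 807-fold higher, while Pmaip1 (NOXA) fell from 41.9 ± 5.13 to 6.61 ± 0.785 CPM (log2 fold change -2.66, SE 0.13, adjusted p = 9.44e-10). Cflar, which blocks caspase 8, rose from 26 ± 8.16 to 138 ± 38.5 CPM (log2 fold change 2.41, SE 0.12, adjusted p = 1.67e-09), and Bcl2 fell from 4.31 ± 3.06 to 1.08 ± 0.617 CPM (log2 fold change -1.86, SE 0.41, adjusted p = 0.00159).

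Contractile and actin genes fell in 26 of 32 cases and rose in 2, with a median log2 fold change of -1.84. Vim, the intermediate filament vimentin, stood at 2121, 1632, 1467 and 2081 CPM in M1CM and 8398, 9474, 7743 and 7672 CPM in M0CM (log2 fold change -2.20, SE 0.12, adjusted p = 3.3e-09), and Tagln (SM22) went from 2294 ± 221 to 356 ± 114 CPM (log2 fold change -2.73, SE 0.16, adjusted p = 7.17e-09). Actg1, cytoplasmic gamma actin, went from 2772 ± 224 to 589 ± 153 CPM (log2 fold change -2.27, SE 0.12, adjusted p = 3.95e-09), and Actg2, the smooth muscle form, stood at 8.87, 2.18, 4.69 and 11.6 CPM in M1CM and 156, 40.2, 93.3 and 221 CPM in M0CM (log2 fold change -4.22, SE 0.14, adjusted p = 3.99e-11), with log2 ratios within rats between -4.29 and -4.12. Cnn3, a non-muscle calponin, and Synpo2 were the 2 that rose (log2 fold change 1.31, SE 0.09, adjusted p = 4.74e-08, and log2 fold change 1.22, SE 0.33, adjusted p = 0.00651). Of the integrin and focal adhesion genes 22 of 34 fell and 4 rose. Vcl (vinculin) went from 1360.5 ± 433 to 198 ± 59.4 CPM (log2 fold change -2.78, SE 0.17, adjusted p = 1.06e-08) and the collagen receptor Itga11 from 2176 ± 476 to 333 ± 137 CPM (log2 fold change -2.78, SE 0.14, adjusted p = 1.17e-09), while the laminin receptors Itga7 (log2 fold change 2.00, SE 0.15, adjusted p = 1.15e-07) and Itga3 (log2 fold change 1.24, SE 0.16, adjusted p = 1.99e-05) rose. Of the TEAD and YAP target list 11 of 18 fell: Ctgf stood at 799.9, 262, 239 and 748 CPM in M1CM and 3759, 3629, 4679 and 5682 CPM in M0CM (log2 fold change -3.23, SE 0.29, adjusted p = 5.53e-07) and Cyr61 went from 908 ± 231 to 185 ± 72.8 CPM (log2 fold change -2.33, SE 0.14, adjusted p = 7.7e-09). The libraries of the media did not overlap in Vim, Actg2 or Ctgf, as was the case for 35.8% of all tested genes.

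Collagens fell in 13 of 19 cases. Col1a1, a chain of the main collagen of bone and skin, stood at 69229, 35880, 28661 and 36330 CPM in M1CM and 83792, 76315, 56713 and 62742 CPM in M0CM (log2 fold change -0.77, SE 0.15, adjusted p = 0.000531), Col3a1 at 13072, 5114, 2580 and 7136 CPM in M1CM and 23869, 23385, 12452 and 14470 CPM in M0CM (log2 fold change -1.52, SE 0.24, adjusted p = 0.000116), and Col11a1 went from 1474 ± 768 to 200.2 ± 134 CPM (log2 fold change -3.03, SE 0.24, adjusted p = 1.31e-07). The groups overlap in Col1a1 and Col3a1 because rat 2 kept a high level in M1CM, although each rat's M1CM value was below its M0CM value. The matrix glycoprotein and crosslinking list was mixed, with 18 rises and 11 falls among 39. Fn1 (fibronectin) rose from 25460 ± 3357 to 38551 ± 7432 CPM (log2 fold change 0.59, SE 0.11, adjusted p = 0.000449) and the crosslinking enzyme Lox from 1335 ± 380.2 to 3316 ± 865 CPM (log2 fold change 1.32, SE 0.13, adjusted p = 9.23e-07), while thrombospondin 2 (Thbs2) stood at 2637, 1325, 958 and 739 CPM in M1CM and 10010, 9432, 8359.6 and 2967 CPM in M0CM (log2 fold change -2.45, SE 0.20, adjusted p = 2.21e-07) and Tnc (tenascin C) went from 3829 ± 1569 to 807 ± 381 CPM (log2 fold change -2.27, SE 0.14, adjusted p = 1.47e-08). Secreted proteases rose in 15 of 28 members tested of their list. Mmp3 (stromelysin) stood at 1429.5, 6343, 13110 and 8269 CPM in M1CM and 7.21, 5.96, 13.4 and 6.45 CPM in M0CM (log2 fold change 9.53, SE 0.55, adjusted p = 6.95e-09), Mmp10 went from 1.21 ± 0.421 to 1007 ± 656 CPM (log2 fold change 9.48, SE 0.49, adjusted p = 2.44e-09) and the gelatinase Mmp9 stood at 531, 1796, 4360.3 and 697 CPM in M1CM and 2.63, 5.31, 2.36 and 1.84 CPM in M0CM (log2 fold change 9.09, SE 0.64, adjusted p = 4.75e-08).

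Lineage genes moved in both directions, with 3 rises and 5 falls among 13 osteogenic genes, 3 and 4 among 12 adipogenic genes and 3 and 5 among 9 chondrogenic genes. In the same order the shares were 23.1% and 38.5%, 25% and 33.3%, and 33.3% and 55.6%. All tested genes gave 26.3% and 26.0%. The regulators Pparg, Sox9 and Runx2, picked from these lists, fell without overlap between the media, which 35.8% of all tested genes also lacked. The adipogenic regulator Pparg stood at 0.0772, 0.0428, 0 and 0.178 CPM in M1CM and 6.3, 2.81, 2.22 and 2.94 CPM in M0CM (log2 fold change -5.50, SE 0.44, adjusted p = 1.69e-07), the chondrogenic Sox9 at 2.28, 1.97, 3.74 and 4.89 CPM in M1CM and 12.6, 16.8, 31.8 and 41 CPM in M0CM (log2 fold change -2.94, SE 0.24, adjusted p = 2.33e-07) and the osteogenic Runx2 at 19.9, 19.4, 17.6 and 15 CPM in M1CM and 40.9, 29.3, 23.6 and 28.8 CPM in M0CM (log2 fold change -0.74, SE 0.16, adjusted p = 0.00145). The bone matrix gene Ibsp rose from 0.167 ± 0.101 to 48.4 ± 18.5 CPM (log2 fold change 8.22, SE 0.64, adjusted p = 1.31e-07), whereas Sp7, an osteoblast factor, fell from 0.986 ± 1.13 to 0.122 ± 0.0587 CPM (log2 fold change -2.59, SE 0.78, adjusted p = 0.0126), a call lost without rat 2 (adjusted p = 0.0934). In a list of nitric oxide receptor and cGMP genes 7 of 11 members fell and 3 rose (1 without rat 4 or rat 8). The beta subunit Gucy1b1 stood at 0.116, 0.214, 0.529 and 0.678 CPM in M1CM and 4.23, 2.27, 15.9 and 8.98 CPM in M0CM (log2 fold change -4.29, SE 0.24, adjusted p = 4.97e-09), and the cGMP-dependent kinase Prkg1 went from 18.7 ± 6.1 to 2.79 ± 1.27 CPM (log2 fold change -2.78, SE 0.18, adjusted p = 2.03e-08). Of the immediate early genes 5 of 20 rose and 11 fell. Fos went from 16.4 ± 4.84 to 1.33 ± 0.503 CPM (log2 fold change -3.64, SE 0.14, adjusted p = 1.11e-10) and Fosl1 from 8.94 ± 1.14 to 81.4 ± 34.8 CPM (log2 fold change 3.14, SE 0.27, adjusted p = 3.3e-07). Npas4 was at 1.61 ± 0.944 CPM in M0CM and had 0 counts in M1CM, at least 55.5-fold lower.

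M0CM was itself tested against D10, the basal medium, to show where the choice of control matters. This test shares the M0CM libraries with the comparison above. RPMI and resting macrophages cannot be told apart in this comparison. In M0CM 107 genes were called higher than in D10 (0.789% of those tested) and 42 lower (0.31%), and a step of at least 2-fold was called for 60 (0.443%) and 20 (0.148%). These counts were small and rested on all 4 rats: without rats 2, 3, 4 or 8 in turn they were 56, 71, 8 and 15 higher and 18, 28, 4 and 8 lower, and with no rat term 17 and 2. Glycolytic genes stood out by count: 11 of 20 were higher in M0CM than in D10, with a median log2 difference of 0.63. Without rats 2, 3, 4 or 8 in turn 5, 12, 1 and 1 of them were called, and with no rat term 3. Slc2a1 averaged 71.6 ± 11.8 CPM in D10 and 111 ± 21.3 CPM in M0CM (log2 fold change 0.64, SE 0.13, adjusted p = 0.0336), Ldha 580.2 ± 111 and 1151 ± 161 CPM (log2 fold change 0.98, SE 0.19, adjusted p = 0.0232), and Pgk1, phosphoglycerate kinase, 373 ± 29.5 and 789 ± 76.8 CPM (log2 fold change 1.08, SE 0.14, adjusted p = 0.00279). Ak4, a mitochondrial adenylate kinase, and Mgarp, a mitochondrial protein, were also higher in M0CM (log2 fold change 1.23, SE 0.14, adjusted p = 0.00148, and log2 fold change 1.75, SE 0.21, adjusted p = 0.0017). Without rat 4 Slc2a1, Ldha, Pgk1 and Mgarp were past the threshold no longer (adjusted p = 0.188, 0.17, 0.0508 and 0.0507), and Slc2a1 and Ldha were not without rat 2 or rat 8 either (lowest adjusted p 0.0803). Without rat 3 Slc2a1 also missed it (adjusted p = 0.0547). From M0CM to M1CM Pgk1 rose again (log2 fold change 0.98, SE 0.14, adjusted p = 4.4e-05), as did Ak4 (log2 fold change 2.38, SE 0.14, adjusted p = 8.36e-09) and Mgarp (log2 fold change 1.46, SE 0.19, adjusted p = 1.85e-05).

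Sod2 stood at 75.9, 108, 77.9 and 50.8 CPM in D10, between 281 and 429 CPM in M0CM and above 2000 CPM in M1CM, and its step from D10 to M0CM was called (log2 fold change 2.17, SE 0.20, adjusted p = 0.000381). Lcn2 likewise was higher in M0CM than in D10 (log2 fold change 3.24, SE 0.58, adjusted p = 0.0177), as was the chemokine Cxcl16 (log2 fold change 1.22, SE 0.17, adjusted p = 0.00391). Both lost the call without rat 4 (adjusted p = 0.17 and 0.0672), as did Lcn2 without rat 2 (0.072) and Cxcl16 without rat 8 (0.0755). The 3 CXCR3 ligands went the other way: Cxcl9, Cxcl10 and Cxcl11 averaged 0.419, 0.629 and 0.343 CPM in D10 and were called lower in M0CM, all at levels under 1 CPM. Without rat 4 none of the 3 passed the threshold (adjusted p = 0.171, 0.252 and 0.108), and without rat 8 none did either (lowest adjusted p 0.0888). Cxcl9 also missed it without rat 3 (0.138) and Cxcl10 without rat 2 (0.17). Of 53 interferon-stimulated genes tested 1 was called higher and 3 lower in M0CM than in D10, the 3 being these ligands. Among all tested genes 0.789% were higher and 0.31% lower. The list had a median log2 fold change of 0.23 between the controls.

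Some genes were higher in M0CM than in D10 and lower in M1CM than in M0CM. Srebf1 averaged 121 CPM in D10, 274 in M0CM and 88.1 in M1CM (log2 fold change 1.18, SE 0.16, adjusted p = 0.00353 for M0CM against D10). Nt5e averaged 28.2, 79.1 and 38.8 CPM in the same order (log2 fold change 1.44, SE 0.21, adjusted p = 0.00391), and M1CM against D10 gave the opposite sign to M1CM against M0CM without reaching the threshold (log2 fold change 0.36, SE 0.20, adjusted p = 0.156). The immediate early factor Egr1 averaged 61.3, 143 and 81.2 CPM (log2 fold change 1.24, SE 0.22, adjusted p = 0.0177 for M0CM against D10 and log2 fold change -0.86, SE 0.22, adjusted p = 0.00496 for M1CM against M0CM). The calls against D10 were lost without rat 4 for all 3 (adjusted p = 0.061, 0.0767 and 0.061), without rat 8 for Nt5e and Egr1 (0.0578 and 0.0904) and without rat 2 for Egr1 (0.132). Gldn (gliomedin), a ligand of the node of Ranvier, stood at 90.8, 60.5, 633 and 887 CPM in D10 and 14.7, 13.5, 147 and 308 CPM in M0CM (log2 fold change -2.07, SE 0.19, adjusted p = 0.000381), with rats 4 and 8 above rats 2 and 3 in both media, and was not called between M1CM and M0CM (log2 fold change -0.18, SE 0.19, adjusted p = 0.447). Crispld2, a secreted glycoprotein, and Actg2 were lower in M0CM than in D10 (log2 fold change -0.80, SE 0.09, adjusted p = 0.00148, and log2 fold change -1.08, SE 0.12, adjusted p = 0.00148) and lower again in M1CM (log2 fold change -0.92, SE 0.09, adjusted p = 1.32e-06 for Crispld2).

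**Figure D3:**
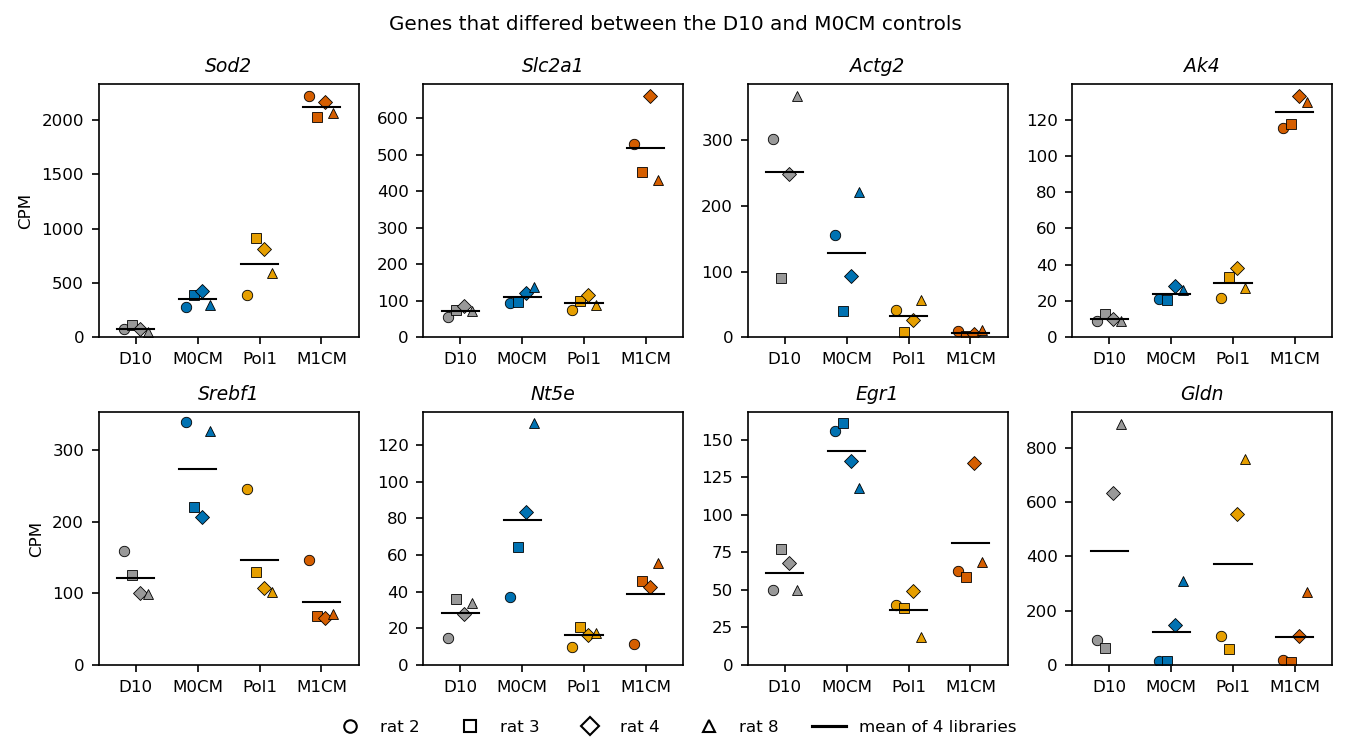
Levels in CPM of 8 genes called between M0CM and D10, in all 4 media, 1 point per rat with the mean as a line. Sod2 averages 78.2, 348 and 2119 CPM in D10, M0CM and M1CM, whereas Srebf1, Nt5e and Egr1 are highest in M0CM.

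Macrophage transcripts were among the genes higher in M0CM than in D10, 9 of the 18 members tested of a list that also holds genes other cells express. In M1CM against M0CM 6 of the 18 were higher and 8 lower. The list summed to 92.4 to 152 CPM in M0CM, 263 to 593 CPM in M1CM and 73.7 to 116 CPM in D10. Lyz2 (lysozyme) stood at 0.309, 0.214, 0.113 and 0.321 CPM in M1CM and 2.15, 2.65, 2.47 and 2.04 CPM in M0CM and averaged 0.0504 CPM in D10 (log2 fold change 5.36, SE 0.57, adjusted p = 0.00113 for M0CM against D10), and fell in M1CM (log2 fold change -3.25, SE 0.46, adjusted p = 4.46e-05). The mannose receptor Mrc1, a macrophage marker, stood at 1.47, 1.23, 1.02 and 1.06 CPM in M0CM and had 0 counts in M1CM, at least 41.2-fold lower. Cd68, a lysosomal protein of macrophages, was higher in M1CM, at 0.887, 6.77, 6.54 and 2.57 CPM in M1CM and 0.957, 0.846, 0.881 and 0.694 CPM in M0CM (log2 fold change 2.12, SE 0.48, adjusted p = 0.00195), with rat 2 alike in both media. Csf1r, the M-CSF receptor, stood at 0.54, 1.16, 0.831 and 0.821 CPM in M1CM and 1.63, 1.92, 1.23 and 2.12 CPM in M0CM (log2 fold change -1.06, SE 0.37, adjusted p = 0.0263), and its call was lost without rats 2, 3 or 8 (adjusted p = 0.0821, 0.0584 and 0.0692). Cybb, the phagocyte oxidase, was not called between M1CM and M0CM and stood at 4.13, 3.08, 0.113 and 0.321 CPM in M1CM and 1.12, 1.19, 1.27 and 1.26 CPM in M0CM, with rats 2 and 3 above and rats 4 and 8 below their M0CM level. Ctss, a cathepsin of antigen presentation, was 8.46 ± 2.89 CPM in Pol1 and 16.2 ± 6.09 CPM in M1CM, where rat 3 stood apart at 25.3 CPM. All of these markers but Ctss averaged under 5 CPM, and the part of carried-over cells in them was not tested.

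M1CM was compared with Pol1 to show how far the polarizing factors alone went. By the labels M1CM and Pol1 differ in base medium, by the macrophages and by any M-CSF carried over, although the study's methods describe a polarizing medium on RPMI. The levels of LPS and IFNγ that reached the MSCs may differ as well. Pol1 was freshly prepared, whereas M1CM held what was left of them after incubation with macrophages and thawing. These differences cannot be told apart. The comparison shares the M1CM libraries with the one above. Relative to Pol1 2690 genes were called higher in M1CM (19.8%) and 2645 lower (19.5%), and with no rat term 1869 and 1535. Of the 53 interferon-stimulated genes tested M1CM had 30 called higher against Pol1, with a median log2 fold change of 0.44, and the list summed to 14306 to 18575 CPM in Pol1 and 24156 to 32976 CPM in M1CM. Several genes of the interferon and class II groups, picked here after their values were seen, were not called between Pol1 and M1CM. Igtp averaged 1056 ± 78.1 CPM in Pol1 (log2 fold change -0.21, SE 0.11, adjusted p = 0.128 for M1CM against Pol1), Psmb9 345 ± 32.8 CPM (log2 fold change -0.02, SE 0.15, adjusted p = 0.916), Irf8 71 ± 19.6 CPM (log2 fold change 0.22, SE 0.17, adjusted p = 0.346), Socs1 96.3 ± 18.3 CPM (log2 fold change -0.19, SE 0.16, adjusted p = 0.346) and Ciita 85 ± 31.2 CPM (log2 fold change -0.43, SE 0.35, adjusted p = 0.357). A p that misses the threshold does not show equal levels. The SE values were worked back from the test statistic and give the precision of each difference only approximately. Without rat 3 Igtp was called lower in M1CM (adjusted p = 0.0117), and without rat 2 Socs1 (0.0143). Apol11a was lower in M1CM than in Pol1 (159 ± 27.6 CPM in Pol1, log2 fold change -1.07, SE 0.19, adjusted p = 0.00121).

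The NF-κB list summed to 1871 to 2476 CPM in Pol1, 914 to 1016 CPM in M0CM and 5330.1 to 6658 CPM in M1CM. Of 28 matrix proteases and inhibitors 15 were called higher in M1CM and 5 higher in Pol1. The genes that follow were picked after their values were seen. Nfkb2 averaged 54.7 ± 4.73 CPM in Pol1, near its M0CM level (log2 fold change 2.37, SE 0.08, adjusted p = 2.96e-10 for M1CM against Pol1), and all but 6 of the 27 NF-κB list members tested were called higher in M1CM than in Pol1. Nos2 stood at 1.13, 7.43, 1.67 and 2.31 CPM in Pol1 (log2 fold change 7.60, SE 0.38, adjusted p = 2.03e-07), Csf3 at 0.0405, 0.108, 0.205 and 0 CPM (log2 fold change 10.15, SE 0.22, adjusted p = 2.87e-12), Ptgs2 at 15.7 ± 7.12 CPM (log2 fold change 6.05, SE 0.55, adjusted p = 2.04e-06) and Mmp3 at 64 ± 33.8 CPM (log2 fold change 6.67, SE 0.48, adjusted p = 2.93e-07). Il1b averaged 0.0263 CPM in Pol1 against 21.6 CPM in M1CM (log2 fold change 9.36, SE 0.59, adjusted p = 1.03e-07), and Mmp12, the macrophage elastase, 0.038 against 33.6 CPM (log2 fold change 9.56, SE 0.51, adjusted p = 3.24e-08). Nlrp3 averaged 5.71 ± 4.91 CPM in Pol1, below its M0CM mean (log2 fold change 4.89, SE 0.20, adjusted p = 3.76e-09). Among the falling genes Hbegf (log2 fold change -0.08, SE 0.23, adjusted p = 0.817) and the proteoglycan Cspg4 (log2 fold change -0.28, SE 0.25, adjusted p = 0.391) were not called between M1CM and Pol1, although without rat 3 Cspg4 was called lower in M1CM (adjusted p = 0.00896). Vim, at 6819 ± 365 CPM in Pol1, and Wisp2, at 221 ± 138 CPM, were lower in M1CM than in Pol1 (log2 fold change -1.91, SE 0.12, adjusted p = 9.92e-08, and log2 fold change -5.08, SE 0.24, adjusted p = 1.36e-08).

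**Figure D4:**
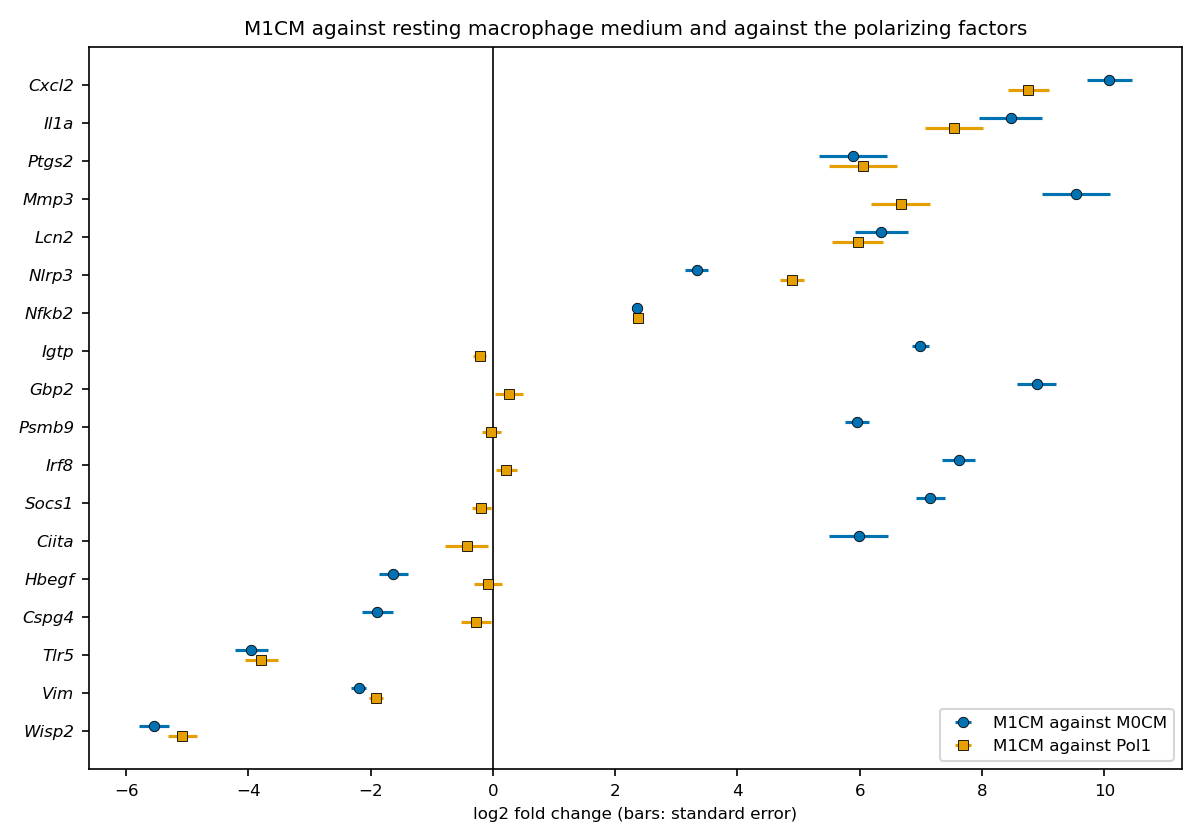
Log2 fold changes (points) of 18 genes in M1CM against M0CM and in M1CM against Pol1, with standard errors worked back from the test statistic (bars). The comparisons share the M1CM libraries. Igtp, Gbp2, Psmb9, Irf8 and Socs1 lie near 0 against Pol1, and Cxcl2, Il1a, Ptgs2 and Mmp3 lie above 5 against both.

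The 4 rats gave the same direction for 3324 of the 3561 higher genes and 3227 of the 3526 lower genes, but not the same size. The SD over rats of the log2 ratio of M1CM to M0CM had a median of 0.30 in higher and 0.35 in lower genes. The rises that varied most were Il11, Gbp6, Il23a, AABR07044364.1 and Ccl22. Il11, a cytokine of the IL-6 family, stood at 1.0, 5.65, 225 and 48 CPM in M1CM and 0.917, 1.46, 1.23 and 1.1 CPM in M0CM, so that it was close to its M0CM level in rat 2 and far above it in rats 4 and 8 (log2 fold change 4.78, SE 1.05, adjusted p = 0.0016). Il23a, a subunit of IL-23, stood at 1.54, 2.31, 120.3 and 13.8 CPM in M1CM and 0.12, 0.0769, 0.387 and 0.122 CPM in M0CM (log2 fold change 7.02, SE 0.81, adjusted p = 6.32e-06), and Ccl22, which attracts regulatory T cells, at 1.31, 1.2, 16.9 and 8.35 CPM against 1 count in M0CM. These 3 were highest in rat 4 and low in rats 2 and 3. Gbp6 stood at 1.39, 793, 127 and 25 CPM in M1CM and 0.0399, 1.73, 0.317 and 0 CPM in M0CM (log2 fold change 8.72, SE 0.79, adjusted p = 5.48e-07) and was near 1 CPM in rat 2 alone, and in Pol1 as well, at 0.608, 1156, 259 and 47 CPM. The unnamed gene AABR07044364.1 stood at 12.7, 3.51, 9.86 and 10.3 CPM in M1CM and 0.0399, 0.769, 0.669 and 0.0816 CPM in M0CM (log2 fold change 4.67, SE 0.78, adjusted p = 0.000185), with rat 3 the lowest in M1CM.

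**Figure D5:**
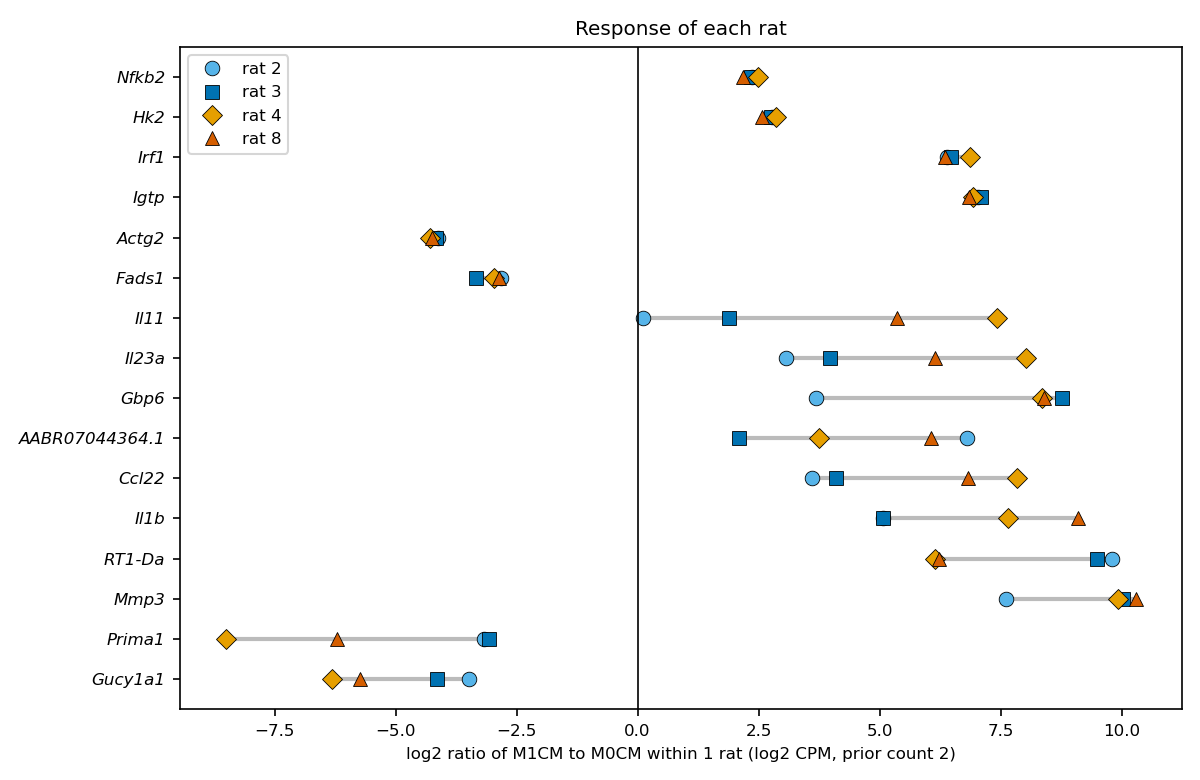
Log2 ratio of M1CM to M0CM within each rat (log2 CPM with a prior count of 2) for 16 genes, 1 point per rat with a grey line over their range. Nfkb2, Hk2, Igtp and Actg2 differ little between rats, whereas Il11 runs from 0.12 in rat 2 to 7.43 in rat 4.

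Genes with a high mean CPM, a level not scaled by transcript length, among those changed at least 4-fold were Vim, Thbs2, Mmp3, Ctgf, Tnc, Gbp2, Cxcl9, Csf1 and Actg1. Of these Mmp3, Gbp2, Cxcl9 and Csf1 were higher in M1CM and 5 were lower. Each of these 9 had the same direction in all 4 rats.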

How the data were processed

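RNA of 16 MSC cultures was sequenced, and the authors deposited raw read counts per gene, made with TopHat2 2.0.12, Bowtie2 2.2.3 and HTSeq 0.6.1 per the submitters' processing notes, for 26689 rat genes. The study's methods name Rnor 6.0 as the genome, and the table's coordinates were not used. Whether counting used strand is not given in the sources used here, so overlapping and antisense genes cannot be told apart. The table also holds FPKM, group means, and the authors' own fold changes, p-values and calls, which were not used. Gene names came from the table, for 362 genes through its KEGG annotation, and list counts use members with their own name.

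The test covered the 13556 genes that reached 10 counts in 4 or more of the 16 libraries. They were fitted with edgeR 4.0.16 (R 4.3.3; TMM scaling, quasi-likelihood test) on all 16 libraries with medium and rat as terms. Each SE was worked back from the test, as the size of the log2 fold change divided by the square root of the F statistic. Near a log2 fold change of 0 it is a ratio of small numbers and only approximate. The labels give each rat's number, and M1CM and M0CM libraries of 1 rat deviated together (r = 0.33 to 0.53, against -0.34 to 0.15 for different rats). Same-rat cultures share an animal, and whether the media came from 1 or several macrophage donors is not given in the sources used here. A gene present in 1 medium passes the filter through that medium. Alternatives were no rat term, 8 libraries only, median-of-ratios scaling (RLE), library totals, no filter, DESeq2 1.42.0 and leaving out each rat. Promoters are RefSeq's for GRCr8. The members and the 47 gene lists were chosen with earlier results of these data known. Genes were named by rule: the 10 largest rises and falls called and alike in direction in all 4 rats with a mean of at least 5 CPM, up to 5 called members per direction and list, key members, 10 genes of M0CM against D10, the 5 most variable rises and the 10 of highest mean among those changed 4-fold. A few genes that the rule names are not reported here.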

Additional observations from a re-analysis of the deposited data

Results flagged for a closer look

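In 17 of 320 groups of 4 libraries checked, for genes named above with at least 40 counts in the group, 1 library lay far from the other 3 by more than Dixon's critical ratio of gap to range. Chance gives about 1 such group in 20, so the number of these libraries is near that share. In rat 4 the M1CM library stood apart with 3513 CPM of Cxcl10, 47.8 CPM of Nod2, 39.8 CPM of Bmp2, 63.3 CPM of Ereg, 134 CPM of Egr1 and 120.3 CPM of Il23a, each the highest of its group. The M0CM library of rat 4 stood apart with 30.6 CPM of Cx3cl1 and 13.4 CPM of Mmp3. In rat 2 the M1CM library stood apart with 147 CPM of Srebf1, and the M0CM library with 6.74 CPM of Casp1, 2612 CPM of Col11a1, 2.67 CPM of Sp7 and 47 CPM of Crispld2. The M1CM library of rat 3 did so with 25.3 CPM of Ctss and 793 CPM of Gbp6, and the M0CM library of rat 8 with 31 CPM of Tnfsf18 and 27.2 CPM of Pcna.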

How the results depend on the processing

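The near-even split of calls between M1CM and M0CM held under every alternative tried: 2556 to 3641 genes were called lower and 2751 to 3659 higher, with 2913 and 2556 without the replicate block. Leaving out each rat in turn gave 3034 to 3325 higher and 2995 to 3268 lower, or 1419 to 1488 and 1355 to 1399 at 2-fold. Of 168 genes named above as called in this comparison, 10 lost the call without the replicate block (Tlr4, Cxcl12, Nt5e, Igf1, Ldhb, Cdkn1a, Synpo2, Sp7, Csf1r and Mcam), and none changed direction under any alternative. Against D10 the counts depended on the processing, with 17 higher and 2 lower without the replicate block, 265 and 149 under DESeq2, and 8 to 71 higher and 4 to 28 lower when each rat was left out. Of 18 genes named as called there, 10 lost the call without the replicate block. Against Pol1, 1869 genes were higher and 1535 lower without the replicate block, and 2038 to 2491 and 1934 to 2357 with a rat left out. Values that changed sign belonged to genes that were not called. With each rat left out in turn, the log2 fold changes in M1CM against M0CM ran from -0.062 to 0.21 for Thy1, from -0.12 to 0.52 for Il15, from -0.093 to 0.24 for Hspa5, from -0.041 to 0.40 for Pcna and from -0.99 to 0.67 for Cybb, which stood at 0.65 without the replicate block. In M1CM against Pol1 they ran from -0.12 to 0.079 for Psmb9 and from -0.21 to 0.022 for Hbegf. Of 949 counts of list members compared with an alternative, 73 moved by over 1.5 times, and the cause was not tested. A gene with few counts in a medium is limited by depth, to about 0.0288 CPM at 0 counts.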

Other observations

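Other groups of genes moved in M1CM against M0CM with calls in both directions in each list described next. Lysosomal genes rose in 19 of 28 cases and fell in 4, at small steps such as 0.98 on the log2 scale for the protease cathepsin B (Ctsb, adjusted p = 4.32e-06) and -0.63 for the lysosomal regulator Tfeb (adjusted p = 0.00313). Wnt genes gave 7 rises and 10 falls among 24: Sfrp2, a secreted Wnt inhibitor, stood at 10.6, 30.4, 23.2 and 6.96 CPM in M1CM and 0.638, 3.19, 0.634 and 0.0816 CPM in M0CM (log2 fold change 4.32, SE 0.44, adjusted p = 1.9e-06), and the receptor Fzd2 went from 199 ± 33.8 to 40.9 ± 7.45 CPM (log2 fold change -2.28, SE 0.14, adjusted p = 1.12e-08). Cell-cell junction genes gave 6 rises and 10 falls among 20, with N-cadherin (Cdh2) from 54.4 ± 51.3 to 268 ± 184 CPM (log2 fold change 2.48, SE 0.14, adjusted p = 5.13e-09) and P-cadherin (Cdh3) from 48.2 ± 16.6 to 3.74 ± 1.22 CPM (log2 fold change -3.66, SE 0.22, adjusted p = 9.09e-09). Clock genes gave 8 rises and 5 falls among 17, led by the rise of Npas2, a partner of Bmal1 (log2 fold change 3.16, SE 0.26, adjusted p = 2.07e-07). The clock falls were 2 without rat 4 and 3 without rat 8, and the junction falls 6 without rat 4.

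MSC surface and niche genes were split, 8 higher and 9 lower among 19. Cd44, the hyaluronan receptor, stood at 837, 1003, 839 and 732 CPM in M1CM and 172, 134, 234 and 310 CPM in M0CM (log2 fold change 2.10, SE 0.21, adjusted p = 1.25e-06), and the pericyte gene Mcam went from 71.8 ± 45.4 to 28.3 ± 25.8 CPM (log2 fold change -1.56, SE 0.21, adjusted p = 2.18e-05). The small heat shock proteins Hspb1 and Cryab fell, Hspb1 from 197 ± 56.4 to 47.7 ± 10.1 CPM (log2 fold change -2.02, SE 0.14, adjusted p = 2.86e-08) and Cryab from 20.4 ± 7.44 to 2.76 ± 1.35 CPM (log2 fold change -2.88, SE 0.21, adjusted p = 5.52e-08), while Hspb8 rose (log2 fold change 2.42, SE 0.24, adjusted p = 1.34e-06) and the heat shock list gave 4 rises and 5 falls among 16. Camp, the antimicrobial peptide cathelicidin, was among 2 tested leukocyte markers and went from 0.185 ± 0.175 to 7.33 ± 3.2 CPM (log2 fold change 5.18, SE 0.60, adjusted p = 6.05e-06). Of 5 endothelial markers tested 3 fell and 0 rose, and of 17 cell cycle inhibitors 8 rose and 3 fell.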
